A study of Mus musculus with 14 samples.

Results

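The clustered histone genes are the genes that encode the bulk of the histones deposited on new DNA, and they lie together in a few groups on the mouse chromosomes. They were taken here as every symbol that starts with Hist1h, Hist2h, Hist3h or Hist4h, and were sorted by the histone named in the symbol. The RNA table of 55433 genes held 70 of them: 6 for H1, 20 for H2A, 19 for H2B, 12 for H3 and 13 for H4. Of the 22470 gene bodies in the chromatin table, 68 belonged to them, with Hist1h2aj and Hist3h2bb-ps present in the RNA table only. The cells came from a mouse tumor of the C57BL/6 background, were kept in culture to passages 6 to 8, and carried a guide RNA that was a control in one condition (sgControl) and targeted NSD3 in the other (sgNSD3). NSD3, encoded by Nsd3, places methyl groups on lysine 36 of histone H3. Total RNA was sequenced in 3 libraries of each condition. Chromatin was profiled for H3K36me2 in 4 samples and for H3K27me3 in 2. The labels do not name the tumor, the guide sequences or whether the cultures were clones, and do not say that the replicates were cultured apart. The p-values below therefore measure the spread between these libraries only, which may be technical.

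Each nucleosome wraps DNA around a core of H2A, H2B, H3 and H4, and the linker histone H1 binds where the DNA enters and leaves. In S phase, when DNA is copied, a cell makes the histones of all 5 classes together. NPAT switches on the clustered genes at the start of S phase. Their messages have no introns and no poly(A) tail, and end in a stem-loop that SLBP binds, cut with the help of the U7 small RNA. Replication-independent histones such as H2A.Z and H3.3 come from genes outside these groups, with ordinary polyadenylated messages.

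The promoters of 5 members are printed first, because they show how the classes differ in the stretch just before the start site and because each belongs to a gene whose RNA was lower in the sgNSD3 libraries. All are RefSeq sequence of GRCm38.p6, the build called mm10, from 250 bases before to 50 bases after the annotated start, written 5′ to 3′ on the gene's strand. Capitals mark CCAAT (the NF-Y box), TATAAA (the TATA box), the octamer ATTTGCAT, the H1 box AAACACA and GGTCCG, a core of the H4 promoter element, each on either strand. GGTCCG was added to the search after the sequences had been seen. The windows are chr13:21780576-21780875 (minus strand) for Hist1h1b, chr13:23750838-23751137 (plus) for Hist1h2ab, chr13:22035594-22035893 (minus) for Hist1h2ah, chr13:23581318-23581617 (plus) for Hist1h4d and chr6:136804382-136804681 (minus) for Hist4h4. The Hist1h2ah window also holds the start of the H2B gene Hist1h2bk, which runs the other way.
Hist1h1b: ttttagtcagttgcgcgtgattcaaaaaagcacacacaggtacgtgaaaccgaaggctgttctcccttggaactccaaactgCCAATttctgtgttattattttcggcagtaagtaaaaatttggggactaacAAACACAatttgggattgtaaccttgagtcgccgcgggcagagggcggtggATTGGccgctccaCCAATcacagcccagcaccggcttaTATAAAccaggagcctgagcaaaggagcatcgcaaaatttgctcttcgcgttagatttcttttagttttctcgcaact
Hist1h2ab: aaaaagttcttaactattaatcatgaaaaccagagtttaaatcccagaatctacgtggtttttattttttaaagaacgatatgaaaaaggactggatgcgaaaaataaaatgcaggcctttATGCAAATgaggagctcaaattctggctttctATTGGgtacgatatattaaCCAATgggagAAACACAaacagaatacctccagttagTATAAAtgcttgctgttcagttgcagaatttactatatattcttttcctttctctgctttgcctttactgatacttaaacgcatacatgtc
Hist1h2ah: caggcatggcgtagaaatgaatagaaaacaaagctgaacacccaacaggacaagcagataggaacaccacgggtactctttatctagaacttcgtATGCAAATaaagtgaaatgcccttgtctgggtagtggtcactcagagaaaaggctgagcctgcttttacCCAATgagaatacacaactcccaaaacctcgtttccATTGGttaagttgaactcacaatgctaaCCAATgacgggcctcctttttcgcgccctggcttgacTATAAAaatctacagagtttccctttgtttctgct
Hist1h4d: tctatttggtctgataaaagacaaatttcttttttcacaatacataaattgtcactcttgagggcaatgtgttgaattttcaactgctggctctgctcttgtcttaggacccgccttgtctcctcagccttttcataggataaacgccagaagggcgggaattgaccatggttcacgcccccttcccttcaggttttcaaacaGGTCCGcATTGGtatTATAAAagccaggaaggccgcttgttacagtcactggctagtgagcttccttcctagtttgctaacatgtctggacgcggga
Hist4h4: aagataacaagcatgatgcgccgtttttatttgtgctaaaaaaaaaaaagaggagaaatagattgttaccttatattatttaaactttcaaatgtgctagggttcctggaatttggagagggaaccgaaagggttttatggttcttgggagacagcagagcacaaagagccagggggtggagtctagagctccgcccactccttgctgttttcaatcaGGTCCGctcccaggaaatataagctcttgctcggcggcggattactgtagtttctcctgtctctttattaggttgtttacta

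A promoter was found for 62 of the 70 symbols, 63 promoters in all. The CCAAT box, bound by NF-Y, was in each of the 6 H1, 18 H2A, 17 H2B and 10 H3 promoters but in 3 of the 12 H4 promoters, against 37.4% of all 32851 RefSeq promoters of the same length. GGTCCG was in 11 of the 12 H4 promoters and in 8.25% of all promoters. The octamer, which binds OCT1 (Pou2f1), was in 7 of 18 H2A and 7 of 17 H2B promoters and in no H1, H3 or H4 promoter, against 1.74% of all. Closely spaced H2A and H2B genes share these bases, so the counts for H2A and H2B are not separate. The H1 box AAACACA was in 5 of 6 H1 promoters and in 7.18% of all promoters. TATAAA was in 55.6% of the members' promoters and in 13.6% of all. A match shows only that the letters are there. Between members called lower in RNA (14 promoters) and members tested and not called (40 promoters), the shares were 85.7% and 85.0% for the CCAAT box and 21.4% and 20.0% for the octamer. For TATAAA they were 78.6% and 45.0%, for the H1 box 28.6% and 5.0%, and for GGTCCG 28.6% and 20.0%. Of the 9 member promoters with the H1 box, 5 belong to H1 genes. No difference between these shares was tested.

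The RNA libraries held between 20294828 and 21863833 counts over all genes. Nsd3 itself had 14610.8, 14443.7 and 14717.2 normalized counts in the sgControl libraries and 22052.8, 22075.5 and 21900.5 in those labelled sgNSD3, so its RNA was not reduced and does not check the labels. Of 6 leukocyte markers, Ptprc had at most 1.0 normalized count, Cd3e none, and Csf1r made up nearly all of the sum (153.6 to 160.3 in sgControl, 176.2 to 184.6 in sgNSD3). The 7 epithelial markers summed to 4275 to 4838 in sgControl and 3076 to 3109 in sgNSD3, with 3 called lower (Krt14, Krt18 and Krt19) and Epcam at 0. Of 6 mesenchymal markers, 4 were called higher (Col1a1, Fn1, Pdgfrb and Thy1), and Vim and Col3a1 were not called. All 6 together summed to 791360 to 843988 in sgControl and 941334 to 946919 in sgNSD3. Of 4 endothelial markers, summing to 120.1 to 144.9 against 198.0 to 237.5, Kdr was called higher and Cdh5 was near 0. Neither erythroid nor testis markers gave a call, but only 1 of 3 (Alas2) and 1 of 5 (Sycp3) had enough counts to be tested. The globin genes Hba-a1 and Hbb-bs were at 0. Of all genes tested, 6.43% were called lower and 5.43% higher. The part of these markers in the histone result was not tested. In RNA from whole cultures, fewer cells of a type and less RNA per cell cannot be told apart. The clustered histones took 0.0686%, 0.0631% and 0.0610% of all counts in the 3 sgControl libraries and 0.0563%, 0.0557% and 0.0560% in the sgNSD3 libraries. The sgControl library with the largest histone share, replicate 1, also had the largest share from the ribosomal RNA loci, 10.6% against 8.42% and 7.99% in the other sgControl libraries and 9.31% to 9.47% in the sgNSD3 libraries. Its share from mitochondrial messages, 0.651%, lay within the sgNSD3 range of 0.637% to 0.674% and below the 0.808% and 0.864% of the other sgControl libraries. Over all genes its counts also stood apart from those of the other sgControl libraries, by a chi-square per degree of freedom of 6.86 and 10.3. From the sgNSD3 libraries it differed by 8.26 to 8.63 and the other sgControl libraries by 7.64 to 8.62, so that distance does not set it apart. Sampling noise alone gives about 1. The other sgControl libraries differed by 2.98 from each other, and the sgNSD3 libraries by 1.34 to 1.47. Counts and class sums are therefore given below with and without this library. The small nuclear and signal-recognition RNAs 7SK and 7SL, which like the histone messages have no poly(A) tail, made up 0.229% to 0.275% of the counts in sgControl and 0.154% to 0.164% in sgNSD3. Their part in the histone result was not tested.

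Clustered histone RNA was lower in the sgNSD3 libraries, and the fall was uneven across classes. Of the 70 members, 59 had a mean of at least 8 normalized counts (counts divided by the library's size factor) and were tested with limma over all 18278 such genes. A limma p-value adjusted over all genes tested below 0.05 was called. By this rule 17 of the 59 were called lower, against 6.43% of all genes tested, and none was called higher, against 5.43% of all genes. Hist1h2bn was the 1 member higher at an unadjusted p under 0.05, and voom on the recovered counts also called 0 higher. The calls were 4 of 5 H1 genes, 6 of 16 H2A, 0 of 15 H2B, 3 of 11 H3 and 4 of 12 H4. The 3 sgNSD3 libraries all lay below the 3 sgControl libraries for 20 members, where 14.4% of all genes did so, and all above them for 3, where 14.0% did. On the deposited log2 scale, which compresses low counts, the median difference was -0.04 over the 59 members and 0.00017 over all genes tested. Per class it was -0.16 for H1, -0.09 for H2A, 0.01 for H2B, -0.05 for H3 and -0.04 for H4. In the plot of differences by class, the H2B genes lie on both sides of 0 while all 5 H1 genes and 15 of 16 H2A genes lie below it.

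**Figure D1:**
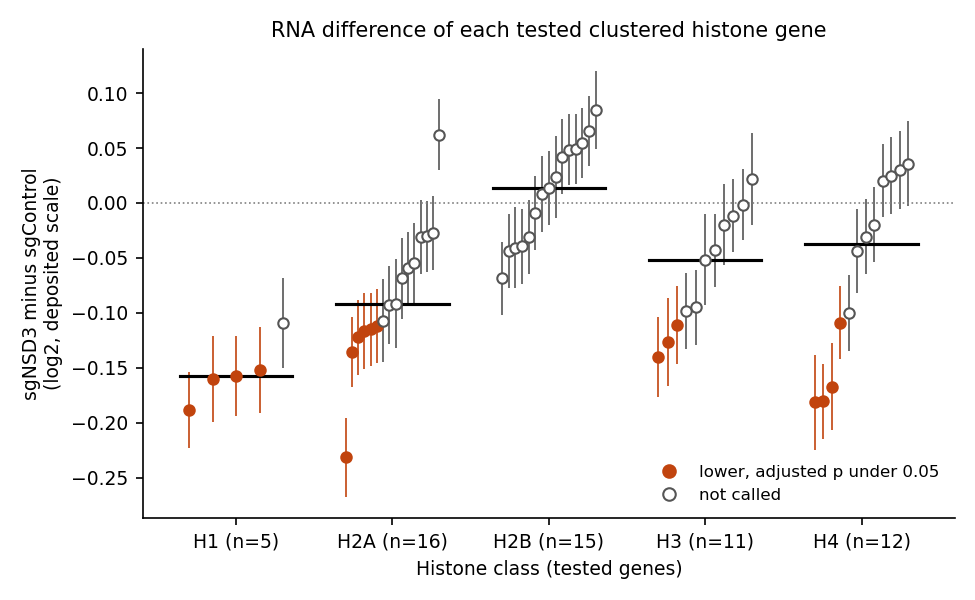
Difference in RNA of each tested clustered histone gene, sgNSD3 minus sgControl on the deposited log2 scale (points, bars are the limma standard error), by histone class with the number tested; filled points were called lower at an adjusted p under 0.05, and the black lines are class medians. The 17 filled points fall in H1, H2A, H3 and H4 and none in H2B.

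The number of calls depended on single libraries. It was 9 without sgControl replicate 1 and 9 without sgNSD3 replicate 2, 11 without sgNSD3 replicate 1, and 21 without sgControl replicate 3. Over all genes, fewer were called lower in every fit with a library left out, also without sgControl replicate 3, where the histone count rose. The ranges are given in the last section. Of the 17 called genes, 7 kept their call in all 17 alternatives run: Hist1h1a, Hist1h1e, Hist1h2ab, Hist1h2aj, Hist1h4d, Hist2h4 and Hist4h4. H2B had no call, lower or higher, in any of them.

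**Figure D2:**
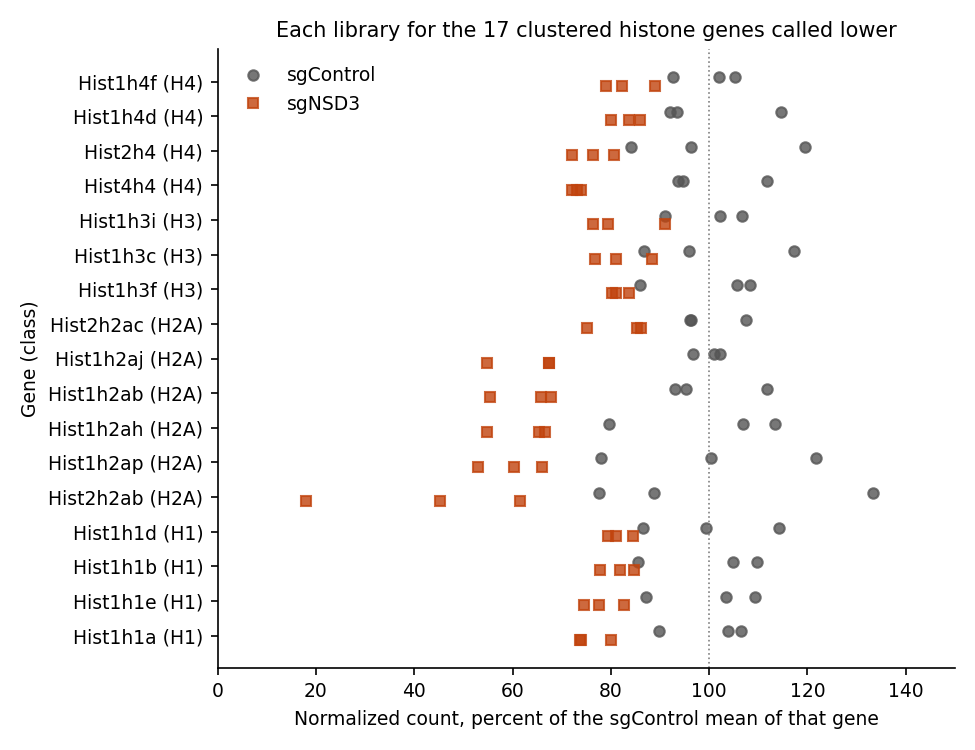
Normalized count of each called gene in each library, as a percent of that gene's sgControl mean (dotted line at 100), with sgControl as circles and sgNSD3 as squares. For 15 of the 17 genes every square lies left of every circle, and Hist1h3c and Hist1h3i overlap. The genes were called on these same libraries, so the lack of overlap is no separate evidence.

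In the H1 class, 4 of the 5 tested genes fell. Hist1h1a, which encodes the H1.1 linker histone, had 499.7, 487.5 and 421.4 normalized counts in sgControl and 346.2, 347.2 and 375.5 in sgNSD3. Its libraries did not overlap, and its mean was 1.32-fold lower (log2 fold change -0.39 ± 0.07 SE, n = 3 and 3, limma adjusted p = 0.00044). Hist1h1e, encoding H1.4, had 441.0, 417.5 and 351.2 in sgControl and 300.6, 333.7 and 312.8 in sgNSD3, a 1.28-fold fall (adjusted p = 0.0044). Hist1h1b, encoding H1.5, had 741.7, 708.3 and 578.1 against 525.5, 572.2 and 553.9 and was 1.23-fold lower (adjusted p = 0.0066). The sgControl libraries of these genes were spread more widely than the sgNSD3 libraries, with replicate 3 the lowest each time. Hist1h1d, encoding H1.3, had 690.4, 600.8 and 523.2 against 490.2, 479.9 and 510.8 and was 1.23-fold lower (adjusted p = 0.010). The call of Hist1h1b was lost without sgNSD3 replicate 1, at an adjusted p of 0.055, and that of Hist1h1d without sgControl replicate 1 or sgNSD3 replicate 2, at up to 0.071. Hist1h1c, encoding H1.2 and with the most counts of the class, had 1232.0, 1033.6 and 975.1 against 900.7, 1030.9 and 944.1; its libraries overlapped and it was not called (adjusted p = 0.089). The testis gene Hist1h1t had 1.0 in every sgControl library and 2.9 to 6.2 in the sgNSD3 libraries, too few to test.

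Among the H2A genes, 6 of 16 fell, and they included the 5 largest fold falls among the tested members. Hist1h2ab had 271.3, 231.3 and 226.0 normalized counts in sgControl and 164.8, 134.6 and 159.8 in sgNSD3. The conditions were far apart relative to their spread, and the mean was 1.59-fold lower (log2 fold change -0.66 ± 0.10, adjusted p = 5.7e-05). Hist1h2aj, which RefSeq lists as a pseudogene, had 78.6, 77.7 and 74.3 against 51.8, 51.9 and 42.2, a 1.58-fold fall (adjusted p = 0.0054). Hist1h2ah had 56.6, 42.2 and 60.1 against 29.0, 34.6 and 35.3, a 1.61-fold fall (adjusted p = 0.024). Both are low-count genes whose libraries did not overlap. Hist1h2ap had 52.4, 43.2 and 33.6 against 22.8, 26.0 and 28.4, a 1.67-fold fall (adjusted p = 0.029). Hist1h2ah and Hist1h2ap each lost the call when any of 5 of the 6 libraries was left out, with adjusted p up to 0.11 and 0.14; the call held only without sgControl replicate 2 for the first and without sgControl replicate 3 for the second.

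Outside the Hist1 group, on chromosome 3, Hist2h2ac had 386.6, 346.5 and 345.1 against 309.9, 270.2 and 306.9 and was 1.22-fold lower (adjusted p = 0.017), a call lost without sgControl replicate 1 or sgNSD3 replicate 2. Its neighbour Hist2h2ab had 23.0, 13.4 and 15.3 against 3.1, 10.6 and 7.8, a 2.40-fold fall (log2 fold change -1.25 ± 0.38, adjusted p = 0.027), a large ratio on few counts whose call was lost without sgControl replicate 1, sgNSD3 replicate 1 or sgNSD3 replicate 3. The H2A gene with the most counts, Hist1h2ak, had 533.2, 433.8 and 533.4 against 433.2, 471.2 and 456.9, which overlap, and was not called (adjusted p = 0.25). Hist1h2af, with 282.9, 228.4 and 200.5 against 222.8, 199.1 and 174.5, was not called either (adjusted p = 0.16). Hist2h2aa2 was the 1 tested H2A gene with a difference above 0, at 23.0, 27.8 and 26.5 against 41.5, 28.8 and 34.3 (adjusted p = 0.24).

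None of the 15 tested H2B genes was called by limma, with 1 lower (Hist1h2bm) and 1 higher (Hist1h2bn) at an unadjusted p under 0.05, and voom called 0. The gene with the most counts, Hist1h2bg, had 303.8, 273.5 and 280.9 normalized counts in sgControl and 301.6, 312.5 and 315.7 in sgNSD3 (ratio 1.08, log2 fold change 0.12 ± 0.07, adjusted p = 0.37). Hist1h2bn had 186.5, 155.5 and 192.4 against 229.1, 189.4 and 213.7 (ratio 1.18, adjusted p = 0.13). Hist1h2bk had 48.2, 39.3 and 44.8 against 59.1, 55.8 and 53.9, with every sgNSD3 library above every sgControl library (ratio 1.28, adjusted p = 0.20). None of these 3 genes passed the threshold. Hist1h2bk was named as 1 of the 3 largest rises, and Hist1h2bn for its rise and its abundance, so their direction is no separate evidence. Hist1h2be, whose RefSeq span of 37455 bases overlaps the gene Gm33387, had 254.6, 264.9 and 218.8 against 236.3, 223.1 and 226.5 (adjusted p = 0.53). Over the 15 genes, 6 had a difference below 0.

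The sums over each class give the same picture. H2B messages summed to 1733.8, 1681.4 and 1631.6 normalized counts in sgControl and 1751.6, 1681.9 and 1736.3 in sgNSD3, a change of 2.44%. H2A messages summed to 2201.0, 1907.9 and 1905.4 against 1659.4, 1577.1 and 1615.7, a change of -19.3%. The H2A libraries stood apart between conditions and the H2B libraries did not. H1 summed to 3605.8, 3248.6 and 2850.0 against 2569.4, 2767.6 and 2700.1 (-17.2%), H3 to 3026.5, 2775.5 and 2690.2 against 2568.4, 2372.4 and 2488.3 (-12.5%), and H4 to 4177.8, 3553.8 and 3532.0 against 3289.7, 3314.8 and 3247.1 (-12.5%). The sgControl libraries of these 3 classes also lay above all sgNSD3 libraries. Replicate 1 was the highest sgControl library in every class. Without it the changes were -12.1% for H1, -15.2% for H2A, 4.03% for H2B, -9.39% for H3 and -7.31% for H4. Within a library, H2A messages were 1.27, 1.14 and 1.17 times the H2B messages in sgControl and 0.947, 0.938 and 0.931 times in sgNSD3. The spread of that ratio was 1.19 ± 0.070 (SD, n = 3) in sgControl and 0.939 ± 0.0084 (SD, n = 3) in sgNSD3. An exact permutation test of 3 against 3 libraries cannot give a two-sided p below 0.1, so none is given for sums or ratios.

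**Figure D3:**
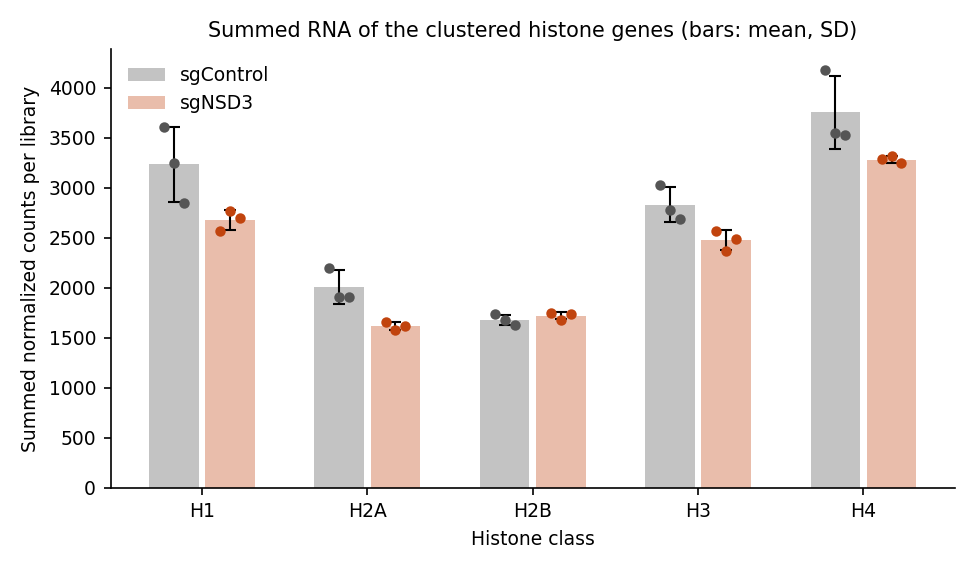
Summed normalized counts of the clustered histone genes of each class in each library (points), with the mean (bar) and SD (error bar) of 3 sgControl and 3 sgNSD3 libraries. The bars for H1, H2A, H3 and H4 are lower in sgNSD3, and the H2B points of the conditions overlap.

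Many H2A and H2B genes are arranged head to head, with start sites a short distance apart and running in opposite directions. Among the members with a promoter found, 10 such pairs had starts 164 to 281 bases apart, and both genes were tested in 8. Members without a promoter, among them Hist1h2aj, Hist1h2bc and Hist2h2be, were not searched, so pairs that include them are left out. In 8 of these 8 pairs the difference of the H2A gene lay below that of the H2B gene, with medians of -0.06 for the H2A and 0.05 for the H2B genes on the deposited log2 scale. These genes are also part of the class medians and sums above, so the pairs are no separate evidence. Hist1h2ah and Hist1h2bk, whose starts lie 178 bases apart within the printed window, gave H2A to H2B ratios of 1.17, 1.07 and 1.34 in sgControl and 0.491, 0.621 and 0.655 in sgNSD3. Hist1h2ak and Hist1h2bn, 164 bases apart, gave 2.86, 2.79 and 2.77 against 1.89, 2.49 and 2.14. Neither gene of this second pair was called alone, and the ratios of the conditions do not overlap. Hist1h2ao and Hist1h2bq gave 0.947, 0.894 and 0.810 against 0.750, 0.554 and 0.707, and Hist1h2ap and Hist1h2br 6.25, 6.43 and 4.13 against 1.83, 1.69 and 3.63. These were the 4 pairs whose ratio was lower in every sgNSD3 library than in any sgControl library, and no pair was the other way round. The ratios of the other tested pairs overlapped between conditions. For single genes such a lack of overlap was seen in 14.4% (lower) and 14.0% (higher) of all genes tested. The share for ratios of other gene pairs was not computed, so the 4 pairs have no background to be read against. Hist1h2bq and Hist1h2br each have a RefSeq span over 1000 bases that reaches past the usual single exon, and Hist1h2br had at most 15.4 normalized counts, so the last ratio rests on few reads.

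**Figure D4:**
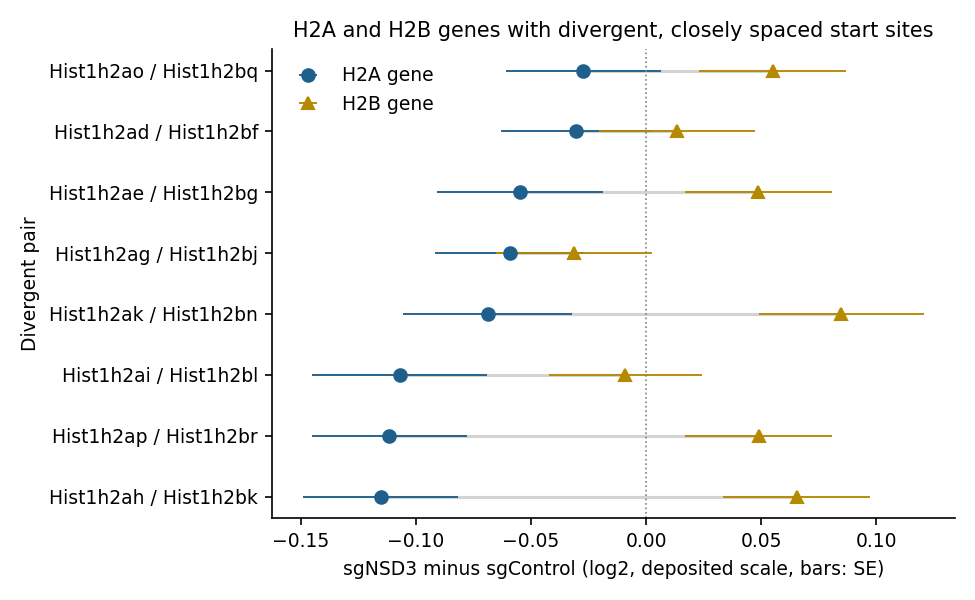
Difference in RNA, sgNSD3 minus sgControl on the deposited log2 scale, for the H2A gene (circle) and the H2B gene (triangle) of each head-to-head pair. Shown are the 8 pairs found among members with a promoter and with both genes tested. Bars are the limma standard error. The circle lies left of the triangle in every pair, and the bars overlap in some, such as Hist1h2ag and Hist1h2bj.

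The H3 genes fell in 3 of 11 cases. Hist1h3i had 522.7, 545.1 and 465.2 normalized counts in sgControl and 465.4, 390.4 and 405.9 in sgNSD3, a 1.22-fold fall (log2 fold change -0.28 ± 0.07, adjusted p = 0.010). Hist1h3c had 465.1, 344.5 and 380.7 against 350.3, 304.8 and 321.6, also 1.22-fold lower (adjusted p = 0.039). In both genes the lowest sgControl library lay below the highest sgNSD3 library. Hist1h3f had 291.2, 284.1 and 231.1 against 215.6, 225.0 and 217.7, a 1.23-fold fall without overlap (adjusted p = 0.041). The call of Hist1h3i was lost without sgControl replicate 2, sgNSD3 replicate 2 or sgNSD3 replicate 3, and that of Hist1h3c without sgControl replicate 1, sgNSD3 replicate 2 or sgNSD3 replicate 3 (adjusted p up to 0.25 over its alternatives). Hist1h3f kept its call only without sgControl replicate 3 among the 6 fits with a library left out. The H3 gene with the most counts, Hist1h3e, had 589.8, 531.7 and 497.7 against 501.6, 458.7 and 455.9 and did not pass (adjusted p = 0.063).

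Of the 12 H4 genes tested, which all encode 1 protein, 4 fell. Hist4h4, a single gene on chromosome 6, had 349.9, 296.6 and 293.1 normalized counts in sgControl and 225.9, 228.9 and 231.4 in sgNSD3. Its sgNSD3 libraries were nearly equal and far below the others, a 1.37-fold fall (log2 fold change -0.45 ± 0.08, adjusted p = 0.00062). Hist2h4 on chromosome 3 had 566.7, 399.2 and 457.0 against 382.5, 342.3 and 361.8, a 1.31-fold fall (adjusted p = 0.0054). Hist1h4d, which had the highest count per kilobase of the 63 members of at most 1000 bases (2725 in sgControl), had 1255.0, 1024.0 and 1007.7 against 917.3, 942.4 and 876.5, a 1.20-fold fall (adjusted p = 0.0054). Hist1h4f had 335.2, 345.5 and 304.3 against 270.5, 259.6 and 292.2, a 1.20-fold fall (adjusted p = 0.031) whose call was lost without any 1 of 4 libraries, sgControl replicates 1 and 2 and sgNSD3 replicates 1 and 2. Hist1h4h had 360.4, 318.6 and 285.0 against 322.3, 341.4 and 345.1 and was not called (adjusted p = 0.66).

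The calls were spread over the gene groups. On chromosome 13, 5 of 22 tested genes fell between positions 21715711 and 22043658, and 8 of 28 between 23531044 and 23934913. For these counts and those that follow, the shares over all genes tested were 6.43% lower and 5.43% higher. On chromosome 3, 3 of the 7 tested Hist2 genes fell, Hist3h2a on chromosome 11 was not called, and Hist4h4 on chromosome 6 fell. Only 6 other genes within the chromosome 13 span were tested, and 1 of them, the serine protease gene Prss16, was called lower (1.77-fold, adjusted p = 0.027), a call lost without any single library other than sgControl replicate 3 and with no filter on low values. Among other short genes, 36 of 777 other genes of at most 1000 bases were called lower (4.63%) and 10 higher, and 4 of 48 other protein-coding genes of that length were called lower (8.33%) and 0 higher by limma, with 3 higher at an unadjusted p under 0.05 and 0 by voom.

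Copies of nearly the same sequence limit some values. The 300-base promoters of Hist1h2bq and Hist1h2br are identical, and those of Hist1h4m and Hist1h4n match at 99.3% of positions. Those of Hist2h3c1 and Hist2h3c2 match at 94.7%, of Hist1h4j and Hist1h4k at 91.7% and of Hist2h2aa1 and Hist2h2aa2 at 85.7%. The sources used here do not say how reads that fit several copies were counted, so the counts of these genes are uncertain. Gene bodies were not compared, so the same may hold for other members. Hist2h3c1, Hist2h2aa1 and Hist1h2aa had no count in any library, while Hist2h3c2 had 51.9 to 69.6. The other 8 members under the filter were Hist1h1t, Hist1h2al, Hist1h2an, Hist1h2ba, Hist1h4m, Hist2h2bb, Hist3h2ba and Hist3h2bb-ps, none above 11.2 normalized counts in any library. Hist1h2al was matched by synonym to a RefSeq pseudogene outside these groups.

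Of 33 tested genes of histone transcription and message processing, 1 was called lower by limma (3.03%, against 6.43% of all genes tested) and none higher (against 5.43%), shares no larger than those over all genes, with Pou2f1 the 1 gene higher at an unadjusted p under 0.05 and 0 higher by voom. The called gene was Cstf2, a cleavage factor, at 1278, 1311 and 1255 against 1147, 1190 and 1134 normalized counts (1.11-fold lower, adjusted p = 0.021), a call lost without sgControl replicate 2, sgNSD3 replicate 1 or sgNSD3 replicate 3. Slbp, the stem-loop binding protein, had 453.6, 488.5 and 519.1 against 512.0, 498.1 and 506.9 (adjusted p = 0.65). Npat had 1102, 1114 and 1173 against 1080, 1125 and 1018 (adjusted p = 0.36). Neither separates the conditions. The U7 RNA gene Rnu7 had no count in any library.

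Of 13 tested replication-independent histone genes, 2 fell (15.4%) and 1 rose (7.69%), against 6.43% lower and 5.43% higher over all genes tested. The shares of this list rest on few calls. H2afj, which encodes the H2A.J variant, had 490.3, 425.2 and 345.1 against 329.6, 322.2 and 353.9 (1.25-fold lower, adjusted p = 0.021), with the lowest sgControl library inside the sgNSD3 range and the call lost without either of sgControl replicates 1 and 2 or sgNSD3 replicates 1 and 2. H1f0, encoding the linker histone H1.0, had 1871, 1894 and 1839 against 1715, 1687 and 1773 (1.08-fold lower, adjusted p = 0.042), a call lost in 10 of 17 alternatives, 4 of which left out a library. H3f3a, encoding H3.3, had 3042, 3243 and 3386 against 3467, 3691 and 3725, a ratio of 1.13 (adjusted p = 0.0029). H3f3b, which also encodes H3.3, was not called (ratio 1.05, limma adjusted p = 0.13). Of 26 histone chaperone genes, 1 fell (3.85%) and 2 rose (7.69%), against the same 6.43% and 5.43%. Npm1, which encodes nucleophosmin, fell 1.09-fold (adjusted p = 0.0041). Atrx, which helps place H3.3, rose with a ratio of 1.15 (adjusted p = 0.00016). Hjurp, the chaperone of the centromeric histone, rose with a ratio of 1.07 (adjusted p = 0.029), a call lost in 6 of 17 alternatives: without sgControl replicate 2, sgNSD3 replicate 1 or sgNSD3 replicate 2, with no filter on low values, with scaling by library total and with no mean-variance trend.

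Genes of S phase and DNA replication were called lower in 5 of 26 cases by limma (19.2%, against 6.43% of all genes tested) and higher in 0 (against 5.43%), with 1 gene higher at an unadjusted p under 0.05 and 0 by voom. Slbp is counted here too. Pcna, the sliding clamp of the replication fork, had 2265, 2424 and 2279 against 2028, 1981 and 2152 (1.13-fold lower, adjusted p = 0.0027). Rrm1, a ribonucleotide reductase subunit, had 5831, 6046 and 5929 against 5309, 5492 and 5376 (1.10-fold lower, adjusted p = 0.0020). These falls, like those of most called histone genes, left no overlap between conditions. The helicase genes Mcm2 (1.11-fold, adjusted p = 0.014), Mcm5 (1.11-fold, 0.032) and Mcm7 (1.10-fold, 0.025) were also called lower, each call lost without sgNSD3 replicate 1 or 2, and those of Mcm5 and Mcm7 also without sgControl replicate 1. That of Mcm5 was lost without sgControl replicate 2 too, and with no filter on low values (adjusted p = 0.054) or quantile normalization (0.071), which also ended that of Mcm7 (0.065). Over the 26 genes the median log2 fold change was -0.01, against -0.19 over the 59 clustered histone genes. The share of cells in S phase was not measured here, and its part in the histone result was not tested.

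The chromatin values are signed scores, 1 per gene body, in 3 columns of the authors' deposited table named H3K27me3, H3K36me2 sample1 and H3K36me2 sample2. The table names neither the libraries behind a column nor which condition a positive score favours, so the scores are described and not read as a gain or loss. H3K27me3 is a mark of silenced genes, and H3K36me2 is the mark that NSD3 and related enzymes place. In the table deposited by the authors, 13.2% of the 68 histone gene bodies scored above 0 for H3K27me3, against 31.5% of all gene bodies and 58.1% of the 1559 other gene bodies of at most 1000 bases. The medians in the authors' deposited table were -0.0248 for the histone gene bodies, -0.0258 for all and 0.0144 for the short ones. By class, 3 of 6 H1 gene bodies and 0 of 13 H4 gene bodies scored above 0 in that column of the authors' deposited table. For H3K36me2 the authors' deposited table had 85.3% of histone gene bodies above 0 in sample1 (89.4% of all, 74.0% of short ones) and 94.1% in sample2 (92.4% of all, 76.9% of short ones). The histone medians in the authors' deposited table, 0.0725 and 0.153, lay beside 0.0757 and 0.125 for all gene bodies.

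Single gene bodies stood out at both ends. In the authors' deposited table, Hist3h2a had the lowest H3K27me3 score of the set, -0.183, and Hist1h2ba the highest, 0.0508. For H3K36me2, the top of the set in the authors' deposited table was Hist1h2bh in sample1, at 0.306, and Hist2h2aa2 in sample2, at 0.387. The lowest in the authors' deposited table were those of the neighbours Hist1h2ao and Hist1h4m, which share -0.0765 in sample1 and -0.0467 in sample2. These genes lie in the segment with near-identical copies, where the authors' deposited table gives Hist1h2bq and Hist1h2br the same sample1 score, -0.0255. The gene bodies of members called lower in RNA had median scores in the authors' deposited table of -0.0243 for H3K27me3, 0.0965 for H3K36me2 sample1 and 0.123 for sample2 (16 gene bodies), and those tested and not called had -0.0248, 0.0645 and 0.174 (42 gene bodies). The order of these medians is not the same in the H3K36me2 columns.

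**Figure D5:**
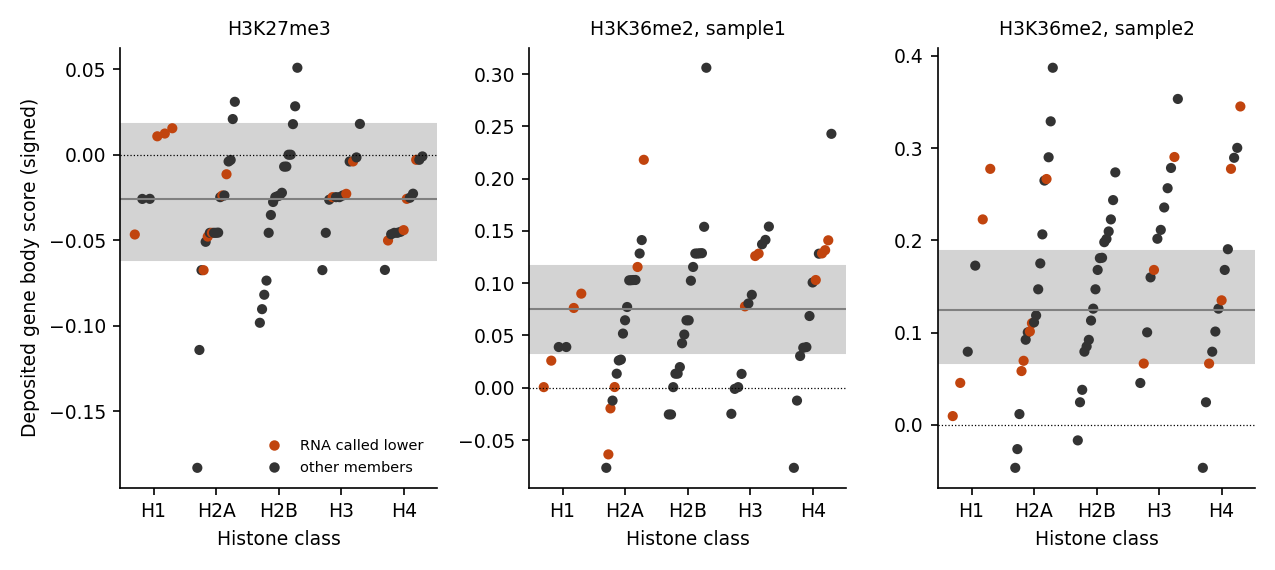
Signed gene body score of each clustered histone gene (points, sorted within each class) in the 3 deposited chromatin columns, with genes called lower in RNA in orange; the grey line and band are the median and the middle 50% of all 22470 gene bodies, and the dotted line is 0. Most histone points lie below 0 for H3K27me3 and above 0 in both H3K36me2 columns, as most of all gene bodies do.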

How the data were processed

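Total RNA-seq of 6 libraries was processed by the authors with HISAT2, featureCounts and DESeq2 on mm10, per the submitters' processing notes; versions, strandedness and the handling of multiply matching reads are not given in the sources used here. The deposited log2 values fit a variance-stabilising transformation with a value of 8.45 for a gene with no count. They were inverted, and each value gave a whole number within a tolerance of 0.05 (100% of values in each library), from which totals, size factors and normalized counts were taken. Folds are ratios of mean normalized counts. Standard errors of log2 fold changes are from limma on log2(normalized count + 1).

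The test was limma 3.58.1 (R 4.3.3; lmFit, eBayes with a trend) on the deposited log2 values of genes with a mean of at least 8 normalized counts, with Benjamini-Hochberg adjustment over all genes tested and a threshold of 0.05; it was tested on simulated data. The chromatin table holds a score per gene body deposited by the authors, whose making is not described in the sources used here; it was only described. All 70 members were matched to RefSeq (GRCm38.p6) by symbol or synonym.

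The members and lists were chosen with earlier results of these data known. Members were named if called, among the 3 most abundant of a class, or among the 3 largest rises and falls; of each other list, called genes, at most 4. Mcm5, Prss16, Hist1h1t, Hist1h2bm, the genes named for their copies or uncalled list genes, and the extreme chromatin scores were named after their values were seen. Same-numbered libraries did not deviate together, so no block was used. Alternatives covered the filter, scale, normalization, gene length, trend, block, each library left out and, added after seeing the data, voom on the recovered counts. One IgG sample whose title and source disagree on the guide was put in no group. Counts give no interval here; the spread between 3 libraries sets the precision.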

Additional observations from a re-analysis of the deposited data

How the results depend on the processing

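With single libraries left out, the clustered histone genes called lower numbered 9 to 21, against 17 with all libraries, and none was called higher in any setting run. Over all genes the calls then ranged from 641 to 993 higher and 706 to 1164 lower, against 993 and 1176. The other 11 settings gave 13 to 21 histone genes lower. The lowest of these came from dropping the filter on low values, and Hist1h2ap, Hist1h3c, Hist1h3f and Hist2h2ab were the members that lost a call in a setting other than leaving out a library. With single libraries left out, the difference of Hist1h4h, not called in any setting, ranged from -0.0055 without sgControl replicate 3, a reversal, to 0.067 without sgControl replicate 1, on the deposited log2 scale; the cause was not tested. With a replicate block on the title numbers, 21 histone genes were called lower (1119 genes higher and 1333 lower in all), and with a replicate block on the description numbers 19 (920 higher and 1087 lower), each including all 17. The numbers share only a name: same-numbered libraries correlated at 0.045, 0.016 and -0.013 in their deviations, and not every library correlated best with its own number. No scaling moved the median of all genes by 0.003 or more on the log2 scale. Leaving out gene bodies at 0 moved the H3K27me3 share above 0 from 13.2% to 13.6%. Of the other genes named, Hjurp, Mcm5, Mcm7, H1f0 and Prss16 lost their call in at least 1 setting other than leaving out a library. The 11 members under the filter had too few counts to be tested at this depth.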
